A study of Mus musculus with 18 samples.

Results

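The transition of mouse embryonic stem cells (ESCs) into epiblast-like cells (EpiLCs) without drug was followed in 6 poly(A) RNA-seq libraries, 3 of vehicle (mock-treated) ESCs and 3 of vehicle EpiLCs, out of 18 libraries in the series. The other 12 libraries were exposed to Δ9-THC or came from primordial germ cell-like cells and are not described here. The study used the unexposed cells as the control of a drug exposure, and the question asked here of the same libraries was which genes differed between the 2 cell types. The genes compared were the 12410 that the 2 deposited tables share, with a further 694 genes listed only for ESCs and 1307 only for EpiLCs.

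Per the study's methods, the cells carried reporters of 2 germline genes, Blimp1::mVenus and Stella::ECFP, and both a female and a male clone were kept. The study describes its ESC growth data as coming from the female cells, with the male clone as a further check. The labels of these libraries name neither clone, and both cell types carry the same reporters. ESCs were grown in 2i+LIF medium, which holds an inhibitor of MEK, an inhibitor of GSK3 and the cytokine LIF. EpiLCs were made from them on fibronectin with activin A, basic fibroblast growth factor and knockout serum replacement. The vehicle was ethanol, and the study describes ESCs and EpiLCs as kept in drug or vehicle continuously. The cell type, the medium, the coating, the day of harvest and the time in vehicle therefore changed together and cannot be told apart. The counts of each cell type were also adjusted for batch separately, so that a difference between the cell types and one left by the adjustment cannot be told apart either, and large differences were given more weight than small ones. Replicates are labelled as biological repeats.

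ESCs in 2i+LIF represent naive pluripotency, the state of the preimplantation epiblast. There, transcription factors such as Esrrb, Klf4, Tfcp2l1 and Prdm14 hold the network together, LIF acts through STAT3, and DNA methylation is low. On leaving this state, cells lose the naive factors, gain Otx2, Pou3f1 and the de novo DNA methyltransferases, and reach the formative state of the early postimplantation epiblast, from which germ cells can be specified. In bulk RNA, fewer cells of a state and less RNA per cell cannot be told apart.

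The libraries held between 23427551 and 32096698 counts, of which the genes of both tables took 99.6% to 99.81%. Levels are given as CPM, counts scaled to 1e6 counts of those genes after TMM scaling, a correction for differences in library composition. Log2 CPM correlated at r = 0.990 to 0.997 between libraries of a cell type and at 0.896 to 0.912 between cell types, across genes, which are not independent replicates. Every gene of a table had at least 80 counts over its 6 libraries. For named genes near 1 CPM, such as Prdm14 in EpiLCs with a mean of 25.3 counts or Rims4 in ESCs with 27.3, counting error is of the size of the spread between libraries or larger. The third EpiLC library stood apart: its TMM factor was 0.956 against 1.003 to 1.017 in the others, and the mitochondrial genome took 5.50% of its counts, against 2.93% and 3.14% in the other EpiLC libraries and 1.69% to 1.96% in ESCs. A feature listed only by its identifier, ENSMUSG00000119584, took 0.782%, 2.20% and 3.89% of counts in the EpiLC libraries and 0.478% to 0.640% in ESCs.

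The markers went with the labels in every library. Esrrb (ENSMUSG00000021255, chromosome 12 from 86361117 to 86521628), an orphan nuclear receptor of the naive network, lay at 884, 900.5 and 892 CPM in the ESC libraries and at 24.7, 27.6 and 32.7 in the EpiLC libraries. It was 31.6-fold lower in EpiLCs, with a log2(fold-change) of -4.98, an SE of 0.11 and a Benjamini-Hochberg adjusted p = 5.51e-12 from edgeR. Prdm14 (ENSMUSG00000042414, chromosome 1 from 13113457 to 13127163), a repressor of de novo methyltransferase genes and a germ cell factor, lay at 79.5, 83.5 and 78.5 CPM in ESCs and at 0.800, 0.874 and 1.12 in EpiLCs. The largest of its EpiLC values was close to 1 CPM, and its log2(fold-change) was -6.45 (SE 0.12, edgeR adjusted p = 1.53e-12). Dnmt3b (ENSMUSG00000027478, chromosome 2 from 153649450 to 153687730), a de novo DNA methyltransferase, went the other way, from 73.1, 79.3 and 79.9 CPM in ESCs to 980.2, 1054 and 776 in EpiLCs. Its log2(fold-change) of 3.60 (SE 0.12, edgeR adjusted p = 9.22e-11) was a 12.1-fold rise. Otx2 (ENSMUSG00000021848, chromosome 14 from 48657677 to 48673819), a homeobox factor of the formative epiblast, rose 13.9-fold, from 5.10, 4.65 and 4.98 CPM to 78.3, 56.5 and 70.8 (log2(fold-change) 3.80, SE 0.13, edgeR adjusted p = 1.26e-10). For all 4 markers the ESC and EpiLC libraries did not overlap. Positions here and below are those of GRCm38, from GENCODE M21, and describe the genes, not the counting.

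The promoters of a pair of genes that fell and a pair that rose are printed here, since the methyltransferases that rose act on CpG sites and these promoters differ widely in how many they hold. Each runs from 250 bases before to 50 after the transcription start of RefSeq in GRCm38.p6, 5′ to 3′ on the strand of the gene, and capitals mark CpG dinucleotides. The Esrrb promoter (chr12:86360867-86361166, plus strand) holds 7 CpG and that of Klf4 (chr4:55532426-55532725, minus strand) holds 40. Those of Dnmt3b (chr2:153649199-153649498, plus strand) and Otx2 (chr14:48667595-48667894, minus strand) hold 30 and 6. For Otx2 the first of 4 listed starts was taken and for Esrrb the first of 2. The other starts hold 8, 16 and 11 CpG for Otx2 and 7 for Esrrb, and all 4 Otx2 starts lie inside the GENCODE gene, downstream of its 5′ end.
Esrrb: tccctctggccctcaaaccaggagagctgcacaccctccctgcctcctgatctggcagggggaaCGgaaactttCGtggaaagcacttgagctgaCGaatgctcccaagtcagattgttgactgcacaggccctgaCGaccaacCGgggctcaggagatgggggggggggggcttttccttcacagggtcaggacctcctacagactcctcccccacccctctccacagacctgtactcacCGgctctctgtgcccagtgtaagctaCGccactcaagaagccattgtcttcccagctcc
Klf4: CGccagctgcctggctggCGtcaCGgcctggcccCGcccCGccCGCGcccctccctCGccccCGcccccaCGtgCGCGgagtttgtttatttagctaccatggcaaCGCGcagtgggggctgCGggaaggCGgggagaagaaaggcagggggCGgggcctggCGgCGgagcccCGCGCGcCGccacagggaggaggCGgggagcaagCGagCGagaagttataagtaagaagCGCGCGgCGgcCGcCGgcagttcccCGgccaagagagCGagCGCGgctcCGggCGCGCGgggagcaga
Dnmt3b: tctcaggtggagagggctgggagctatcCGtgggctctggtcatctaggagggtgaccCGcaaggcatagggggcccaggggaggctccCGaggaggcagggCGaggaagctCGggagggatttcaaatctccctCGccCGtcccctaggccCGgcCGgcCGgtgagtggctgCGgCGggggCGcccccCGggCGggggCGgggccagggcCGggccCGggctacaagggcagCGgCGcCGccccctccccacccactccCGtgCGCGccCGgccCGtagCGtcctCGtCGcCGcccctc
Otx2: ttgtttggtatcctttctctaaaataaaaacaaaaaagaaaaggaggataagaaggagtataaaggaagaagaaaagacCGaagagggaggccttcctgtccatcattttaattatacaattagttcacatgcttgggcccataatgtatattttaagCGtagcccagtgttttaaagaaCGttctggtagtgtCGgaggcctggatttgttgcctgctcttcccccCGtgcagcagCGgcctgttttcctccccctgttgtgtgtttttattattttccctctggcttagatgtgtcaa
At the starts printed, the fallen pair and the risen pair each held 1 window above and 1 below the median CpG count of all promoters, and every listed Otx2 start lay below it. Over the genes tested, 12112 promoters of 9445 genes could be matched. The median CpG count was 21 over all of them, 18 for the genes called higher in EpiLCs and 17 for those called lower, and 81.2%, 72.8% and 70.6% of promoters held at least 10. Both directions lay on the same side of the background. Of 7 motifs searched on both strands, the ESRRB motif AAGGTCA was found in 3.2% of all promoters, 3.58% of those of genes called higher and 4.02% of those called lower. The OTX motif TAATCC was found in 5.52%, 5.02% and 5.05%. For the KLF motif GGGTGTGG the shares were 3.62%, 4.19% and 3.44%, and for the POU octamer ATTTGCAT 1.26%, 1.67% and 1.39%. They were 2.4%, 1.98% and 2.85% for the LEF/TCF motif CTTTGAT, 1.87%, 1.52% and 1.54% for the GRHL motif AACCNGTT, and 10.2%, 8.52% and 9.51% for the E-box CACGTG. These shares describe letters in a short window and no binding was measured.

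**Figure D1:**
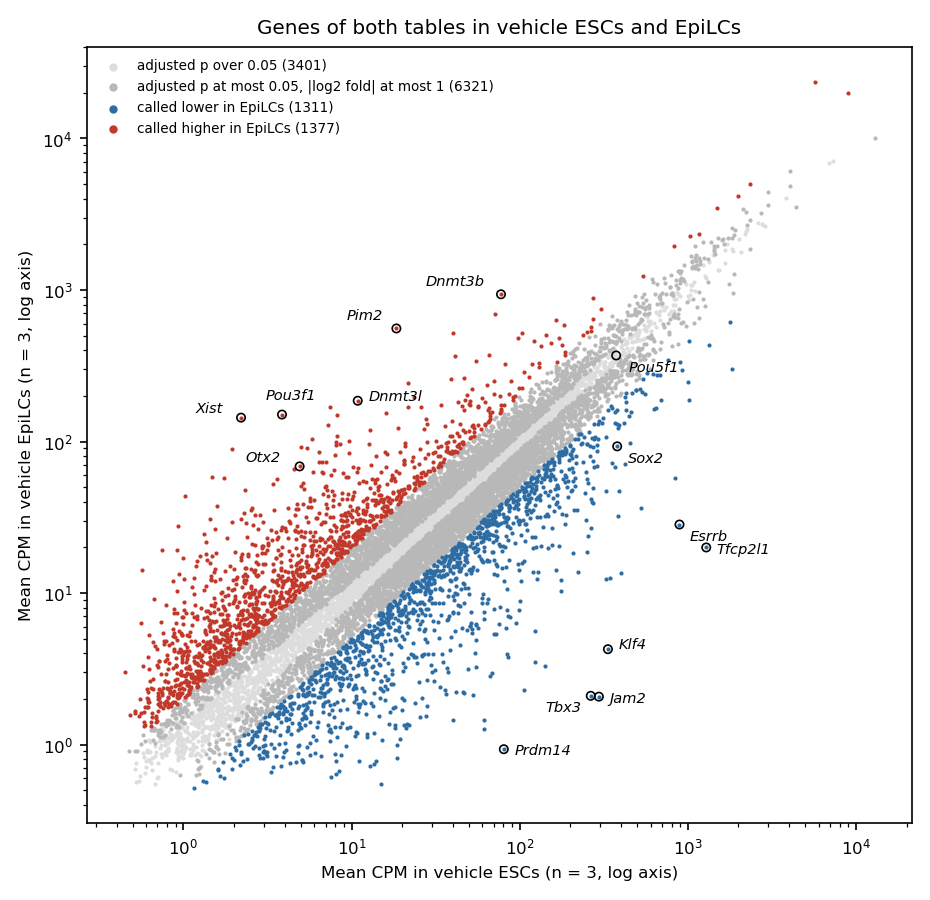
Mean CPM of each of the 12410 genes of both tables in vehicle ESCs (x axis, log scale) and vehicle EpiLCs (y axis, log scale), each dot a gene and each mean over 3 libraries. The 1377 genes called higher in EpiLCs are red and the 1311 called lower are blue, with Jam2, Tbx3, Prdm14 and Klf4 far below the diagonal and Xist, Pou3f1 and Pim2 far above it.

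The cell types differed over much of the transcriptome. At an adjusted p of at most 0.05 in edgeR's quasi-likelihood test, 4430 genes (35.7% of those tested) were higher in EpiLCs and 4579 (36.9%) lower. Because the tables had been adjusted separately, a gene was called only when its log2(fold-change) also exceeded 1 in size, which left 1377 genes called higher (11.1%) and 1311 called lower (10.6%). These shares are the background against which the gene lists below are read. The lists were chosen with earlier results of these data known, so that their counts are descriptions of the members. The groups of 3 libraries did not overlap for 2685 of the 2688 called genes, which a call at this adjusted p and size makes likely in itself. The share without overlap over all genes is not given. The median change in size of the called genes was 1.498 on the log2 scale, and the median signed change over all genes tested was -0.0012. Differences in size over 4 on the log2 scale were seen for 24 genes higher and 40 lower, and over 5 for 6 and 10.

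The steepest falls were led by genes of the naive state and of its cell surface. Jam2, a junctional adhesion molecule, lay at 275, 327 and 286 CPM in ESCs and 1.81, 2.03 and 2.38 in EpiLCs, a log2(fold-change) of -7.17 (SE 0.12, edgeR adjusted p = 1.2e-12). Tbx3, a T-box repressor of the naive network, fell from 253, 284 and 257 CPM to 2.09, 1.87 and 2.33 (log2(fold-change) -6.99, SE 0.11). Klf4, a Krüppel-like factor downstream of STAT3, fell from 305, 363 and 337 CPM to 4.42, 3.34 and 5.02 (log2(fold-change) -6.32, SE 0.13). All 3 were left at a few CPM in every EpiLC library. Tfcp2l1, another factor downstream of STAT3, fell from 1289, 1295 and 1278 CPM to 17.8, 19.7 and 22.5, a log2(fold-change) of -6.01 (SE 0.11). Nr5a2, an orphan nuclear receptor, fell from 122, 127 and 119 to 3.13, 3.87 and 3.54 CPM (log2(fold-change) -5.12, SE 0.098). With Jam2 and Prdm14, 6 of the 10 steepest falls were therefore members of the naive list described below. That list was chosen with earlier results of these data known.

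The remaining 4 of the 10 are less tied to pluripotency. Ntn1, a secreted guidance cue, lay at 56.1, 69.7 and 57.3 CPM in ESCs and 1.04, 0.967 and 1.79 in EpiLCs (log2(fold-change) -5.63, SE 0.17). Slit2, a guidance cue that binds Robo receptors, lay at 62.0, 61.6 and 60.7 and 1.18, 1.44 and 1.75 CPM (log2(fold-change) -5.41, SE 0.12). Both guidance cues were thus close to 1 CPM in EpiLCs. Plagl1, an imprinted zinc finger factor, fell from 119, 116 and 85.0 CPM to 1.95, 2.68 and 2.20 (log2(fold-change) -5.54, SE 0.16). Aqp3, a channel for water and glycerol, fell from 161, 123 and 141 to 2.89, 2.81 and 4.21 CPM (log2(fold-change) -5.45, SE 0.15).

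The steepest rise was that of Xist, the non-coding RNA that coats and silences an X chromosome, from 2.18, 1.61 and 2.81 CPM in ESCs to 177, 127 and 127 in EpiLCs. Its log2(fold-change) was 6.02 (SE 0.19, edgeR adjusted p = 6.09e-11), and the X chromosome is taken up again below. Pou3f1, a POU factor of the formative epiblast also known as Oct6, rose from 3.59, 3.96 and 4.02 to 156, 135 and 160.2 CPM (log2(fold-change) 5.29, SE 0.10, edgeR adjusted p = 2.31e-12). Pim2, a serine/threonine kinase, rose from 18.9, 16.6 and 19.9 CPM to 593, 619 and 459.9 (log2(fold-change) 4.91, SE 0.13). For all 3 genes the lowest EpiLC library lay far above the highest ESC library, and the rule that named them required libraries without overlap.

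The other 7 of the 10 steepest rises encode proteins of varied function. Lrp2, an endocytic receptor also called megalin, rose from 7.06, 7.81 and 7.57 to 171, 181 and 157 CPM (log2(fold-change) 4.51, SE 0.090). Enpp3, an ectonucleotidase, rose from 1.90, 1.72 and 2.17 to 80.9, 94.8 and 92.7 CPM (log2(fold-change) 5.53, SE 0.12). Pcdh1, a protocadherin, rose from 1.60, 1.25 and 1.56 to 57.2, 65.5 and 52.0 CPM (log2(fold-change) 5.30, SE 0.14). All 3 were at a few CPM in every ESC library. Mmp25, a membrane-anchored metalloproteinase, Efnb2, a ligand of Eph receptors, Kif1a, an axonal kinesin, and Rims4, a protein of the presynaptic zone, had log2(fold-changes) of 5.44 (SE 0.16), 4.56 (SE 0.14), 5.03 (SE 0.11) and 4.88 (SE 0.15). These 4 genes lay between 0.706 and 1.90 CPM in single ESC libraries and reached means of 43.8 ± 3.93, 37.5 ± 4.31, 57.4 ± 2.81 and 27.6 ± 3.64 CPM (SD, n = 3) in EpiLCs.

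Of 20 genes listed for naive pluripotency, all were tested and 18 were called lower in EpiLCs, the median log2(fold-change) being -3.89. The general level of calls lower was 10.6%. Besides the genes above, Nanog, a homeobox factor, fell from 959, 1082 and 1024 CPM to 192, 178 and 195 (log2(fold-change) -2.44, SE 0.085) and so kept more of its ESC level than the factors above. Zfp42, a zinc finger gene also called Rex1, fell from 377, 404 and 395 to 47.0, 47.9 and 47.3 CPM (log2(fold-change) -3.05, SE 0.073). Nr0b1, Tcl1 and Tdh, which encode an atypical nuclear receptor, a coactivator of AKT kinase and a threonine dehydrogenase of ESC metabolism, had log2(fold-changes) of -4.49, -4.47 and -4.89. Klf2 and Klf5, partners of Klf4, fell by 3.05 and 3.32. The smallest falls that were called were those of Pecam1, an adhesion molecule, and Dppa3, also called Stella, with log2(fold-changes) of -1.08 (SE 0.080) and -1.26 (SE 0.10), and Pecam1 was not called without the first EpiLC library (-0.99) or with offsets for GC content and gene length (-0.97). Fgf4, the ligand that drives exit from the naive state, passed the test with a log2(fold-change) of only -0.82 (SE 0.073). Gbx2, a homeobox factor downstream of LIF, lay at 12.6, 13.9 and 13.1 CPM in ESCs and 12.9, 17.8 and 16.6 in EpiLCs and did not pass (edgeR adjusted p = 0.0756). The naive genes thus differed among themselves from almost complete loss (Prdm14, Tbx3, Jam2) to no detected change (Gbx2).

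**Figure D2:**
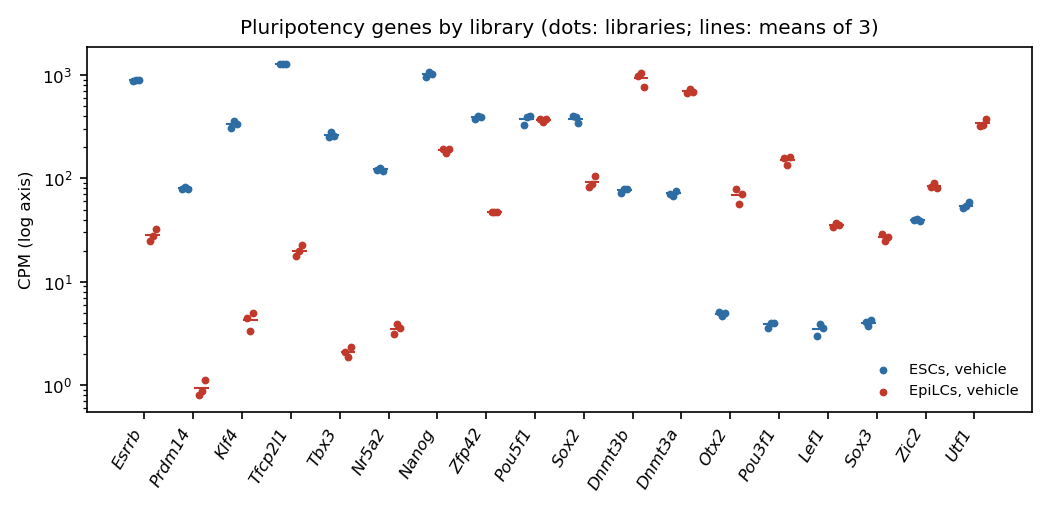
CPM (log scale) of 18 pluripotency genes in each vehicle ESC library (blue) and EpiLC library (red), with lines at the means of 3 libraries. The 8 naive genes on the left are lower in every EpiLC library, Pou5f1 overlaps between the cell types, and the 8 genes on the right are higher in every EpiLC library.

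Of 20 genes listed for the formative and primed epiblast, 16 could be tested. Of these, 12 were called higher in EpiLCs and 1 lower, the median log2(fold-change) being 2.64, against 11.1% of all genes called higher. Sox4, an SRY-related factor, rose from 5.50, 4.87 and 5.97 to 94.4, 74.4 and 103 CPM (log2(fold-change) 4.05, SE 0.13). Lef1, a transcriptional effector of Wnt signalling, rose from 2.98, 3.88 and 3.55 to 34.04, 36.9 and 35.2 CPM (log2(fold-change) 3.35, SE 0.11). Sox3, Grhl2 and Sall2, which encode a neural SRY-related factor, an activator of epithelial enhancers and a zinc finger factor, had log2(fold-changes) of 2.75, 2.62 and 2.66. Zic2 and Zic5 rose less, with log2(fold-changes) of 1.09 (SE 0.076) and 1.32 (SE 0.070), and with offsets for GC content and length Zic2 was not called (0.95). Etv4 and Tead2 passed the test with log2(fold-changes) of 0.83 and 0.32, below the size set for a call. Foxd3, a forkhead factor, passed lower at -0.75 (SE 0.13) and with the same offsets was called lower (-1.07), which left 11 genes of the list called higher and 2 lower. Cdh2, the N-cadherin of later epiblast and mesoderm, was called lower at -1.31 (SE 0.13). The other 4 genes of the list, Fgf5, Fgf15, Wnt8a and Car14, were listed only in the EpiLC table, where Fgf5 lay at 16.6, 17.8 and 12.9 CPM in the 3 libraries and Fgf15 at 29.1, 26.4 and 27.3.

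The general pluripotency factors split. Pou5f1, which encodes OCT4, lay at 332, 393 and 400.2 CPM in ESCs and 379.9, 355 and 374 in EpiLCs. The groups overlapped and no change was detected (log2(fold-change) -0.02, SE 0.085, edgeR adjusted p = 0.841). Its partner Sox2 was lower in every EpiLC library, at 83.0, 89.3 and 106 CPM against 399.6, 394 and 347 in ESCs (log2(fold-change) -2.03, SE 0.10, edgeR adjusted p = 3.05e-09). Of the 12 genes of the list, 2 were called higher and 2 lower, against 11.1% and 10.6% of all genes, with a median of 0.25. Utf1, a chromatin-associated factor, rose from 51.2, 54.0 and 58.9 to 320.1, 329.8 and 372 CPM (log2(fold-change) 2.64, SE 0.087). Lin28a, which blocks the maturation of let-7 microRNAs, rose from 101, 92.8 and 100.5 to 461, 549 and 446 CPM (log2(fold-change) 2.31, SE 0.093). Sall4, a zinc finger partner of OCT4, was called lower at -1.05 (SE 0.073), close to the limit, and with the offsets it was not called (-0.99).

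Genes of the DNA methylation machinery changed in both directions. The de novo enzymes and their cofactor were all called higher. Dnmt3a rose from 71.3, 67.3 and 76.4 CPM to 676, 732 and 681 (log2(fold-change) 3.28, SE 0.084), as Dnmt3b did, and Dnmt3l, which has no catalytic activity and stimulates both, rose from 9.24, 12.2 and 11.2 to 176, 203 and 178 CPM (log2(fold-change) 4.10, SE 0.11). The maintenance enzyme Dnmt1 and its partner Uhrf1 passed the test with smaller falls, at -0.61 (SE 0.095) and -0.60 (SE 0.085). Among the TET enzymes, which oxidise methylcytosine, Tet2 was called lower at -2.20 (SE 0.078), Tet1 passed at -0.64 (SE 0.095), and Tet3 lay at 18.1 ± 2.05 and 19.2 ± 2.38 CPM (SD, n = 3) and did not pass. Tdg, the glycosylase that removes oxidised methylcytosine, did not pass either (log2(fold-change) 0.24, SE 0.13). Zfp57, which protects imprints, was called lower at -1.27 (SE 0.11), and Gadd45a, which has been linked to demethylation, was called higher at 1.74 (SE 0.17). Of the 12 genes of the list, 4 were called higher and 2 lower, against 11.1% and 10.6% of all genes, with a median of 0.16. Methylation itself was not measured here.

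Genes of the signalling pathways that the 2 media address were also compared, at the level of RNA, and the activity of the pathways was not measured. FGF signals through ERK, which the MEK inhibitor of 2i blocks and fibroblast growth factor feeds. Of 16 tested ligands, receptors and targets of this pathway, 9 were called higher in EpiLCs, against 11.1% of all genes, with a median of 1.25. A further 4 passed the test lower with a smaller fold. Fos was listed only for ESCs, at a mean of 6.98 CPM, and Fgf5 and Fgf8 only for EpiLCs, at means of 15.7 and 2.14. Dusp6, a phosphatase that feeds back on ERK, rose from 11.4, 14.7 and 12.6 to 115, 136 and 107 CPM (log2(fold-change) 3.21, SE 0.12). Myc rose from 5.59, 7.77 and 6.72 to 56.3, 65.8 and 65.2 CPM (log2(fold-change) 3.23, SE 0.12), and Ier3, an immediate early gene, from 6.11, 2.90 and 3.80 to 36.9, 28.2 and 24.7 CPM (log2(fold-change) 2.79, SE 0.22). The list did not move as 1 block: the feedback inhibitors Spry4 and Spry1 were called higher at 1.94 and 1.12, while Spry2, Etv5 and Egr1 passed the test lower at -0.68, -0.45 and -0.46. Among the receptors, Fgfr2 was called higher at 1.55 (SE 0.13) and Fgfr1 passed at 0.59 (SE 0.065).

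LIF signals through its receptor, JAK kinases and STAT3. Of 15 tested genes of this pathway, 9 were called lower, against 10.6% of all genes, with a median of -1.25. The 9 held receptors, kinases, the transcription factor and targets. The receptor subunits Lifr and Il6st fell from 64.5, 60.5 and 55.8 to 9.22, 9.98 and 10.2 CPM and from 159, 162 and 149.5 to 25.7, 27.2 and 27.6 CPM, by 2.62 and 2.54 on the log2 scale. Stat3 fell from 108, 102 and 101 to 15.2, 15.9 and 16.2 CPM (log2(fold-change) -2.71, SE 0.076), and the kinases Jak1 and Jak2 both fell by 1.25. Of the targets, Socs3, a feedback inhibitor, fell from 85.5, 83.9 and 82.0 to 7.20, 7.08 and 8.97 CPM (log2(fold-change) -3.44, SE 0.099), and Bcl3 from 70.9, 67.3 and 67.9 to 2.54, 2.81 and 3.50 CPM (log2(fold-change) -4.56, SE 0.11). Klf4 and Tfcp2l1, counted here too, are also in the naive list. Socs1 passed the test higher at 0.85, at 1.87 ± 0.204 CPM in ESCs and 3.401 ± 0.661 in EpiLCs (SD, n = 3), a size of 1.01 without the second EpiLC library, and Pim1 did not pass (edgeR adjusted p = 0.0538).

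Nodal and activin signal through SMAD2 and SMAD3. Of 14 tested genes, 3 were called higher and 2 lower, against 11.1% and 10.6% of all genes, with a median of 0.16. Lefty1, an inhibitor of Nodal and a target of the pathway, rose from 25.5, 19.4 and 25.6 to 177, 204 and 211 CPM (log2(fold-change) 3.07, SE 0.11), whereas the related Lefty2 passed at 0.43 (SE 0.083). Skil, a co-repressor of SMADs, and Foxh1, their DNA-binding partner, were called higher at 1.84 (SE 0.12) and 1.54 (SE 0.097). Nodal itself passed at 0.37 (SE 0.089), and Smad2 and Smad3 at -0.28 and -0.31. Inhbb, which encodes a subunit of activin B, fell from 18.03, 20.8 and 22.4 to 1.25, 0.936 and 1.84 CPM (log2(fold-change) -3.97, SE 0.18). Fst, an inhibitor that binds activin, was called lower at -1.04 (SE 0.23), and it was not called when the second ESC library (-0.77) or the third EpiLC library (-0.97) was left out.

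Targets of canonical Wnt signalling, which GSK3 inhibition turns on, did not move together. Axin2, the most widely used target, fell from 52.6, 50.6 and 51.0 to 5.88, 6.33 and 6.68 CPM (log2(fold-change) -3.03, SE 0.089, edgeR adjusted p = 4.11e-11). Cdx1, Notum, Sp5 and T, also known targets, were listed only in the ESC table, at 57.7, 57.1 and 62.2 CPM for Cdx1, 19.1, 20.3 and 19.4 for Notum, 12.7, 14.6 and 14.8 for Sp5 and 1.97, 2.24 and 1.81 for T. Rnf43, which encodes a ubiquitin ligase that removes Wnt receptors, was listed only in the EpiLC table, at 0.835, 0.530 and 0.897 CPM. Of the genes in both tables, Lef1, Nkd2 and Nkd1, inhibitors of Dishevelled in the case of the latter pair, and the R-spondin receptor Lgr4 were called higher. Lgr4 lay at 50.8, 44.4 and 44.5 CPM in ESCs and 155, 179 and 153 in EpiLCs (log2(fold-change) 1.80, SE 0.087), and the Nkd genes stayed below 10 CPM in mean in both cell types, with log2(fold-changes) of 2.14 for Nkd1 and 2.85 for Nkd2. Of 10 tested genes, 4 were called higher and 1 lower, against 11.1% and 10.6% of all genes, with a median of 0.47. Another 4 passed with a smaller fold, such as Ccnd1, which encodes cyclin D1, at 0.44 and Znrf3, a relative of Rnf43, at -0.43. The remaining 1 did not pass. In the BMP pathway, 11 genes were tested, with a median of -0.20. Of these, 1 was called higher (Id2, log2(fold-change) 1.38) and 1 lower (Bmp7, -1.52), against 11.1% and 10.6% of all genes. Id4, Msx2 and Smad9 were listed only for ESCs, at means of 8.67, 2.27 and 1.72 CPM, and Msx1 only for EpiLCs, at 1.77. Id1 and Id3, the usual targets, passed lower at -0.85 and -0.96, with means of at most 3.91 CPM. Without the third EpiLC library both were called (-1.02 and -1.06), which brought the genes called lower to 3, as the offsets did.

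**Figure D3:**
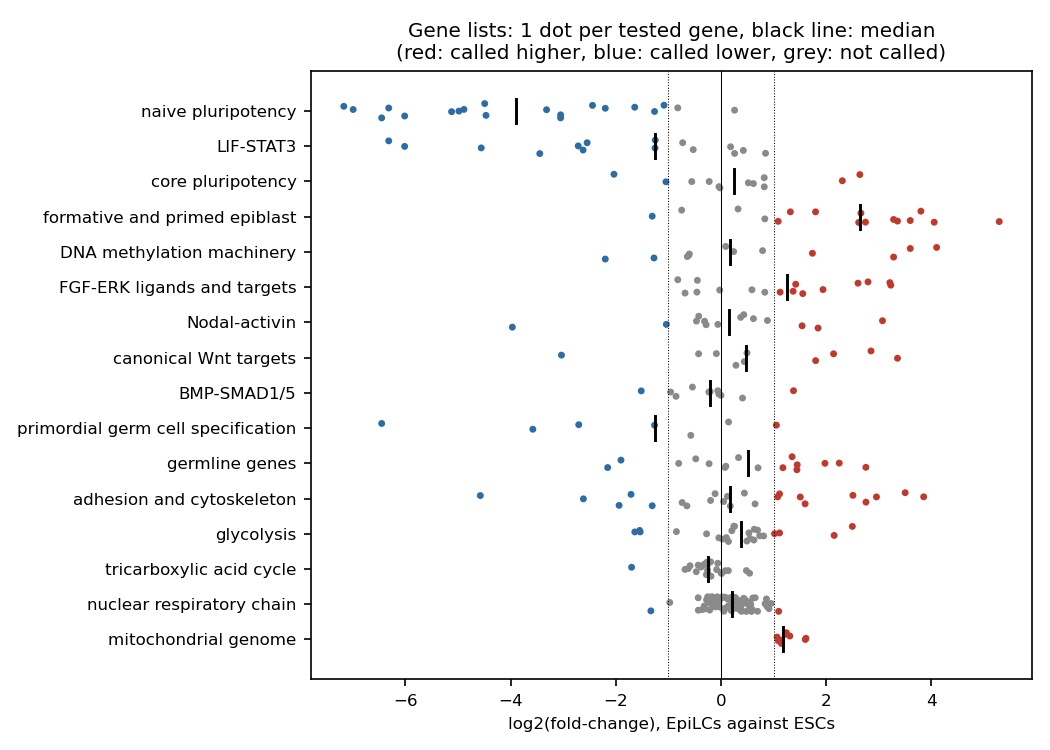
Log2(fold-change), EpiLCs against ESCs (x axis), of each tested gene of 16 lists (rows), with dots coloured red for called higher, blue for called lower and grey for not called, dotted lines at a size of 1 and black lines at the medians. Naive genes lie to the left with a median of -3.89, formative genes to the right with a median of 2.64, and the tricarboxylic acid cycle close to 0.

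Change among the enzymes of glycolysis was uneven along the pathway. Of 24 genes, 14 were higher at the adjusted p alone and 5 lower, against 35.7% and 36.9% of all genes. Only 4 were called higher and 3 lower, against 11.1% and 10.6% of all genes, with a median of 0.37. At the entry, the glucose transporter Slc2a3 fell from 1849, 1793 and 1741 CPM to 615, 604 and 637 (log2(fold-change) -1.54, SE 0.081), while Slc2a1 passed the test in the other direction at 0.81 (SE 0.12). Hexokinase 1 (Hk1) was called lower at -1.64 (SE 0.085), and Hk2 passed at -0.27 (SE 0.081). The isoforms of phosphofructokinase went apart: Pfkp fell from 505, 446 and 429 to 162, 146 and 164 CPM (log2(fold-change) -1.55, SE 0.086), and Pfkl rose from 286, 249 and 265 to 471, 568 and 581 CPM (log2(fold-change) 1.02, SE 0.094), close to the limit. Without the second ESC, the second EpiLC or the third EpiLC library, Pfkl was not called (0.97 to 0.98), nor was it when scaled by library totals (0.98).

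The middle and the end of glycolysis were mostly higher in EpiLCs by small amounts. Aldoa, Tpi1, Eno1, Pkm and Ldha passed the test with log2(fold-changes) of 0.53, 0.63, 0.69, 0.55 and 0.74. Pgk1 and Pgam1 did not pass. Eno3, an enolase best known from muscle, was called higher at 2.15 (SE 0.10) from 5.69 ± 0.0579 CPM (SD, n = 3). The lactate exporter Slc16a3, also called MCT4, rose from 61.6, 32.8 and 45.2 to 259, 267 and 263 CPM (log2(fold-change) 2.50, SE 0.17, edgeR adjusted p = 5.32e-08), whereas Slc16a1, or MCT1, lay at 216 ± 4.997 and 210.2 ± 6.36 CPM (SD, n = 3) and did not pass. Pdk1, a kinase that inhibits pyruvate dehydrogenase, was called higher at 1.11 (SE 0.098). Ldhb passed the test lower at -0.85 (SE 0.071).

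Genes of the tricarboxylic acid cycle and of pyruvate entry leaned the other way. Of 23 genes, 15 were lower at the adjusted p alone and 2 higher, against 36.9% and 35.7% of all genes. The median was -0.25, but 1 gene was called, against 11.1% of all genes called higher and 10.6% called lower. That was Idh2, the mitochondrial NADP-dependent isocitrate dehydrogenase, which fell from 255, 261 and 269 to 79.7, 79.8 and 82.4 CPM (log2(fold-change) -1.70, SE 0.067, edgeR adjusted p = 4.1e-10). Next came Pdha1, of pyruvate dehydrogenase, at -0.68 (SE 0.10). Mdh2 and Suclg2 passed the test higher at 0.54 and 0.48. Among 77 respiratory chain genes of the nuclear genome, 35 were higher at the adjusted p alone and 12 lower, against 35.7% and 36.9% of all genes. The median was 0.21, and 1 was called in each direction, against 11.1% of all genes called higher and 10.6% called lower. These were Ndufb2 at 1.10 and Cox7a1 at -1.33. Ndufb2 was not called without the first ESC library (0.85) or the first EpiLC library (0.86), and without the second EpiLC library 5 genes were called higher. With offsets that remove trends with GC content and gene length, these counts were 20 and 19 and the median was 0.05, so that the lean of this list depended on the processing.

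**Figure D4:**
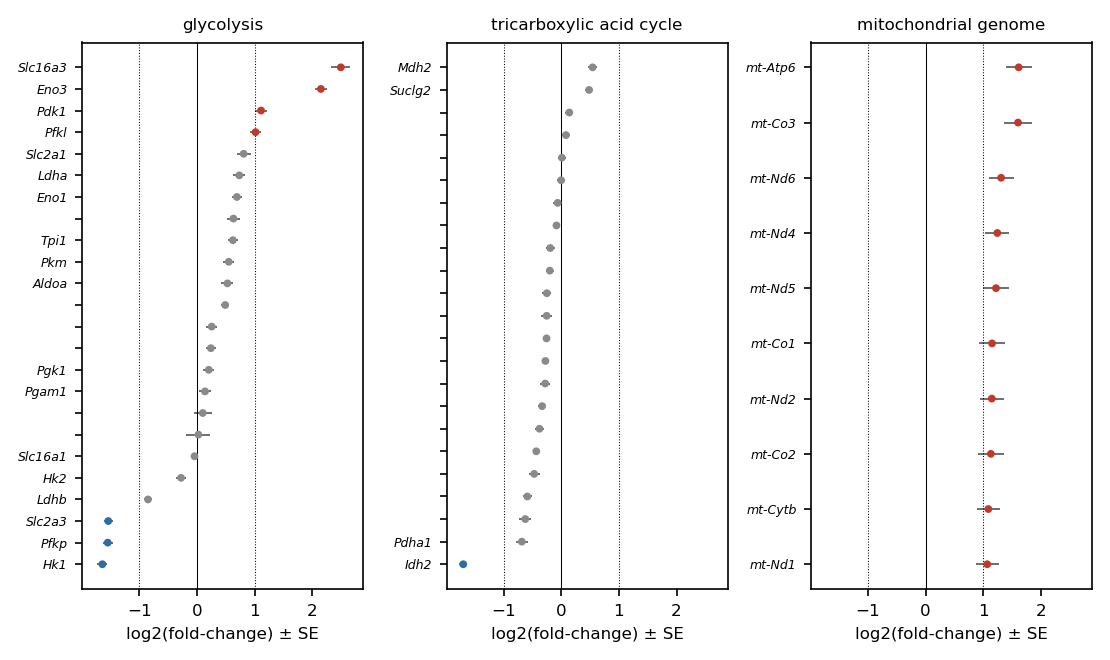
Log2(fold-change), EpiLCs against ESCs (x axis, with SE bars), of each gene of glycolysis, of the tricarboxylic acid cycle and of the mitochondrial genome, sorted by size, with labels for the mitochondrial genes and for those named in the text, and with red for called higher, blue for called lower, grey for not called and dotted lines at a size of 1. Slc16a3 and Eno3 lie highest in glycolysis and Hk1, Pfkp and Slc2a3 lowest, Idh2 lies alone below the dotted line in the cycle, and the mitochondrial genes cluster just above 1.

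Transcripts encoded by mitochondrial DNA were higher in EpiLCs. Of its 13 protein-coding genes, 10 were tested and all 10 were called higher, against 11.1% of all genes, with a median of 1.19. In ESCs mt-Co1 lay at 9919.8, 8622 and 8437 CPM and in EpiLCs at 15869, 14635 and 29466. The third EpiLC library was the highest by far, and without it 2 of the 10 were called and the median was 0.81, although all 10 still passed the adjusted p. Without the first ESC library, mt-Co2 was not called (0.98). With the GC content and length offsets, 3 were called and the median was 0.91. The share of counts taken by the mitochondrial genome was larger in each EpiLC library than in each ESC library, at the smallest p that 3 against 3 can give (exact permutation test, two-sided, p = 0.1). mt-Co2, mt-Co3 and mt-Atp6 held fewer than 20 CPM in mean in either cell type, and since mitochondrial genes have nuclear copies and only uniquely mapped reads were counted, the levels of these genes are uncertain.

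Adhesion and cytoskeleton genes changed in both directions. Of 23 tested genes, 9 were called higher and 5 lower, against 11.1% and 10.6% of all genes. The members called higher were mostly epithelial. The keratin Krt18 rose from 4.51, 3.99 and 5.15 to 66.3, 50.8 and 81.0 CPM (log2(fold-change) 3.85, SE 0.17), the tight junction claudin Cldn6 from 7.03, 8.43 and 9.99 to 91.3, 92.5 and 104 CPM (log2(fold-change) 3.50, SE 0.12), and Epcam, an epithelial adhesion molecule, from 64.4, 66.5 and 65.0 to 363, 361 and 389 CPM (log2(fold-change) 2.51, SE 0.072). Cldn7 was called higher at 2.76. The E-cadherin gene Cdh1 was abundant in both cell types, at 566 ± 9.43 and 769.9 ± 39.8 CPM (SD, n = 3), and passed with a log2(fold-change) of 0.44.

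The genes of the extracellular matrix did not move together. Fn1, which encodes mouse fibronectin (the coating of the EpiLC plates was of human plasma), fell from 1897, 1859 and 1764 CPM to 286, 321 and 293 (log2(fold-change) -2.62, SE 0.089). The 3 chains of laminin-111 went apart: Lama1 fell from 64.4, 73.0 and 63.8 to 1.95, 3.21 and 3.32 CPM (log2(fold-change) -4.57, SE 0.15) and Lamc1 was called lower at -1.94 (SE 0.10), while Lamb1 rose from 19.2, 23.5 and 22.4 to 159, 179.5 and 165 CPM (log2(fold-change) 2.95, SE 0.091). Vim, the intermediate filament of mesenchymal cells, was called lower at -1.71 (SE 0.074).

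The X chromosome was examined alongside Xist. Of 11 tested genes of X inactivation, 3 were called higher, against 11.1% of all genes. Ftx, a non-coding activator of Xist, rose from 2.03, 2.49 and 2.35 to 16.1, 9.64 and 11.03 CPM (log2(fold-change) 2.42, SE 0.20). Tsix, the antisense transcript that overlaps Xist, sat at the limit for a call (log2(fold-change) 1.00, SE 0.21) and was not called without the second ESC, the third ESC or the first EpiLC library (0.84 to 0.99) or when scaled by library totals (0.97). Per the methods reads were counted without strand, so that reads of Xist and Tsix in their overlap cannot be told apart. Rlim, an activator of Xist, passed at 0.66 (SE 0.089), and Kdm6a and Kdm5c, X-linked demethylases that escape inactivation, passed lower at -0.80 and -0.63. The 4 Y-linked genes Ddx3y, Eif2s3y, Kdm5d and Uty were listed in neither table.

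Without Xist and Tsix, the 462 tested X-linked genes had a median log2(fold-change) of -0.20, against 0.0033 for 11913 autosomal genes. The difference of medians, -0.20, kept its sign under all alternatives run for it, from -0.18 to -0.23. Medians of the 19 autosomes taken singly ran from -0.082 to 0.091, so that no autosome lay as far from 0 as the X. Of the X-linked genes, 16.5% were called lower and 12.6% higher, against 10.4% and 10.9% of autosomal genes, and 47% passed the adjusted p lower, against 36.6%. X-linked genes took 4.41%, 4.54% and 4.37% of counts in the ESC libraries and 3.91%, 4.03% and 3.78% in the EpiLC libraries. These shares did not overlap (exact permutation test, two-sided, p = 0.1, the smallest that 3 against 3 can give). The shift of the median was small beside the spread of the genes, whose middle 50% ran from -0.72 to 0.42, and it is of a size for which the separate adjustment of the tables cannot be told apart from the cells.

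**Figure D5:**
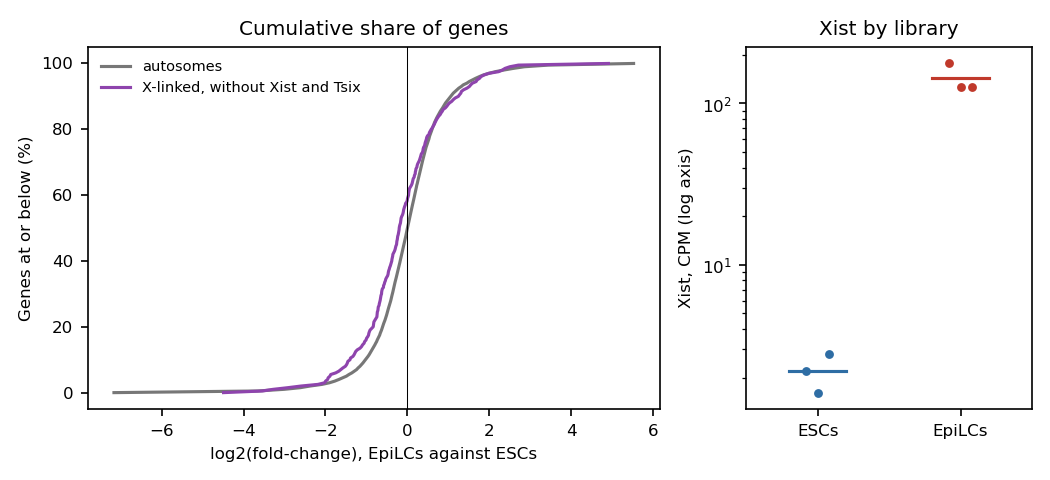
Left, the cumulative share of genes (y axis, percent) at or below each log2(fold-change), EpiLCs against ESCs (x axis), for 462 X-linked genes without Xist and Tsix (purple) and 11913 autosomal genes (grey), the purple line lying to the left over the middle of the range. Right, Xist in CPM (log scale) in each library with lines at the means of 3, between 1.61 and 2.81 in ESCs and between 127 and 177 in EpiLCs.

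Genes of the germ line were followed because EpiLCs are the starting point of germ cell specification. Of 7 tested genes of primordial germ cell specification, 4 were called lower and 1 higher, against 10.6% and 11.1% of all genes. The 4 lower ones, Prdm14, Tfap2c, Dppa3 and Kit, are all also expressed in naive ESCs. Nanos3 and Itgb3 were listed only for ESCs, at means of 2.40 and 6.54 CPM. Tfap2c, an AP-2 factor, fell from 134 ± 2.02 to 20.5 ± 2.36 CPM (SD, n = 3; log2(fold-change) -2.70, SE 0.088), and Kit, the receptor of stem cell factor, from 397, 380.3 and 379.7 to 31.3, 32.04 and 33.8 CPM (log2(fold-change) -3.58, SE 0.076). Prdm1, the gene of the Blimp1 reporter, lay at 17.6, 14.3 and 16.1 CPM and 15.3, 20.2 and 17.4 CPM and did not pass (edgeR adjusted p = 0.294). Dnd1 was called higher at 1.05 (SE 0.17), near the limit, and was not called without the third EpiLC library (0.92) or with the offsets (0.99). Of 16 tested germline genes known to be silenced by promoter methylation in somatic cells, 7 were called higher and 2 lower. The shares over all genes were 11.1% and 10.6%, and the median of the list was 0.52. Sycp2, Tex101 and Brdt were listed only for EpiLCs, at means of 4.11, 1.09 and 1.85 CPM. Mael, of the piRNA pathway, rose from 5.37, 5.09 and 5.97 to 38.8, 34.7 and 37.5 CPM (log2(fold-change) 2.75, SE 0.10), and Dazl, an RNA-binding protein of germ cells, fell from 45.1, 37.9 and 38.6 to 10.05, 9.58 and 7.53 CPM (log2(fold-change) -2.15, SE 0.12). Tdrkh, Taf7l, Sycp1 and Sycp3 were called higher at 2.25, 1.98, 1.45 and 1.44, at means of 13.2 CPM or less in EpiLCs. This list therefore held members moving strongly in both directions.

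Most markers of other cell types were in neither table or low, with exceptions among the neuroectoderm and trophectoderm genes. The calls in these short lists stand beside 11.1% of all genes called higher and 10.6% called lower. For the primitive streak and mesoderm, 1 of 10 genes was in both tables: Eomes, a T-box factor, at 12.4, 8.06 and 10.2 CPM in ESCs and 4.56, 3.62 and 4.35 in EpiLCs. T and Gsc were listed only for ESCs and Mixl1, Wnt3 and Tbx6 only for EpiLCs, with means of at most 5.05 CPM, and 4 were in neither table. For endoderm, Gata4 was the only gene of 10 in both tables, at 2.96 ± 0.432 and 0.978 ± 0.0695 CPM (SD, n = 3), and 7, with Gata6, Sox17 and Foxa2 among them, were in neither. For neuroectoderm, 3 of 10 were tested and Sox1 was called higher, from 3.53, 5.13 and 4.94 to 10.5, 14.2 and 13.1 CPM (log2(fold-change) 1.48, SE 0.16). Nes, the intermediate filament nestin, passed the test higher, from 38.3, 42.2 and 40.4 to 61.7, 75.5 and 69.6 CPM (log2(fold-change) 0.77, SE 0.087). Tubb3, a neuronal tubulin, lay at 54.3 ± 1.87 and 51.4 ± 3.22 CPM (SD, n = 3) and did not pass. A further 6 genes were in neither table and Pax6 was listed only for EpiLCs, at 2.78, 3.21 and 3.77 CPM. For trophectoderm, the defining factors Cdx2, Elf5, Gata3 and Hand1 were in neither table, and of the 6 tested genes the keratins Krt8, Krt18 and Krt7 were called higher, at 1.60, 3.85 and 2.50 (means of 26.4, 66.0 and 7.02 CPM in EpiLCs, respectively), and Tfap2c, Tead4 and Eomes lower, at -2.70, -4.11 and -1.30. In the 2-cell-like list, 6 of 10 genes were in neither table, and 2 of the 3 tested were called higher, against 11.1% of all genes, with a median of 1.21. These were Zscan4c and Zscan4d, at means of 3.33 and 3.28 CPM in EpiLCs, near-identical copies whose counts are uncertain. Zscan4a did not pass, and Zscan4f was listed only for EpiLCs, at a mean of 1.09 CPM.

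Genes listed for only 1 cell type were mostly low. Of the 694 listed only for ESCs, 473 had a mean of at least 1 CPM and 30 of at least 10 CPM, and of the 1307 listed only for EpiLCs, 1001 and 63 did. A gene missing from a table has no value there, so that no fold and no test are given. Those of highest CPM, which also grows with transcript length, were for ESCs Cdx1, a caudal homeobox factor, Trpm1, a cation channel, at 65.6, 55.3 and 55.5 CPM in the 3 libraries, Mras, a RAS-related GTPase, at 39.6, 38.2 and 43.6, Slc15a1, a peptide transporter, at 36.5, 36.8 and 34.8, and Lrrc15, a leucine-rich membrane protein, at 35.3, 39.3 and 32.9. For EpiLCs they included Car4, a membrane-bound carbonic anhydrase, at 135, 118 and 135 CPM, Vrtn, which sets vertebral number, at 54.2, 61.7 and 58.5, Cxcl12, a chemokine, at 47.6, 47.9 and 44.8, and Sema6a, a semaphorin, at 46.9, 48.5 and 43.8. The replicates of each lay close together, above the median of 1.42 CPM for genes listed only for ESCs and 1.55 CPM for those listed only for EpiLCs.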

How the data were processed

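RNA of vehicle ESCs (n = 3) and vehicle EpiLCs (n = 3) was analysed from 2 deposited tables of whole-number counts per gene, 1 for each cell type. Per the methods and the submitters' processing notes, the authors selected poly(A) RNA, made libraries with either of 2 kits (which library used which is not named), demultiplexed with bcl2fastq 2.19.1.403, mapped uniquely with STAR (both mm10 and GRCm39 are named), counted exons without strand with HTSeq, removed genes with low counts and adjusted each table for batch with ComBat-seq. The batches are not named, so no within-batch value can be given. Adjusted counts can understate the spread between replicates. The differential expression tables of the authors and the libraries of primordial germ cell-like cells were not used here, and 0 columns of the tables were left unassigned.

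The 12410 genes of both tables were tested with edgeR 4.0.16 (R 4.3.3) by the quasi-likelihood test after TMM scaling, with a total over 10 counts, no block and Benjamini-Hochberg adjustment over all of them. A gene was called at an adjusted p of at most 0.05 and a log2(fold-change), EpiLCs minus ESCs, over 1 in size. SE is the size of the log2(fold-change) divided by the square root of the F statistic. On simulated counts of this comparison (12410 genes), the test recovered 100% of 200 genes changed by 2 on the log2 scale. The simulation changed far fewer genes than differ in the data, equally up and down. It did not cover sizes near the limit of 1 or the separate batch adjustment. Libraries held 23427551 to 32096698 counts. Symbols came from GENCODE M21, in which 17 tested genes were not found. Genes named are the 4 markers, the 10 largest changes in each direction among called genes with a mean of at least 20 CPM in the higher cell type and no overlap of libraries, members of 23 gene lists, and the 5 genes of highest mean CPM among those of only 1 table. Some genes that this rule names are not reported here. The members and lists were chosen with earlier results of these data known. One value per library was compared by an exact permutation test. The alternatives are given below with their effect.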

Additional observations from a re-analysis of the deposited data

How the results depend on the processing

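Counts of genes called higher and lower, 1377 and 1311, moved little with RLE size factors (1392 and 1284), library totals (1303 and 1382), DESeq2 (1395 and 1286), a fit of all 12 libraries (1385 and 1299), a minimum of 10 counts in every library (1377 and 1309), no filter (1377 and 1311) or offsets for GC content and gene length (1335 and 1255, with 2411 of the 2688 genes called in both). Leaving out 1 library at a time gave 1328 to 1491 higher and 1272 to 1344 lower, where a cell type left with 2 libraries shared its spread with the other. The fold threshold moved them more: 4430 and 4579 at the adjusted p alone, 372 and 345 above 2 on the log2 scale, and 877 and 911 when tested against a log2 fold of 1. Genes of 1 table numbered 30 for ESCs and 63 for EpiLCs at 10 CPM or more. Replicate numbers were shared by the cell types, and the labels do not say whether they pair the libraries. The deviations of same-numbered libraries correlated at 0.0427, 0.0507 and 0.142, of others at -0.119 to 0.0575. Because the batch adjustment may have removed differences that paired libraries shared, these values cannot decide whether the libraries were paired. With the replicate block, 1369 genes were called higher and 1320 lower, 2676 of them in common with the fit without it. Among 2254 refits of the genes named, 2221 kept their direction and call, 23 lost the call, 6 gained it and 4 changed sign, the last for Pou5f1 without the second ESC (0.014), the third ESC (0.029) or the second EpiLC library (0.011), against -0.02 with all libraries and -0.10 at the lowest, and for Tet3 without the second EpiLC library (-0.011, 0.18 at the highest). The X-linked minus autosomal median lay between -0.18 and -0.23, and the alternatives for it beyond scaling and level were chosen after seeing the data. Where a call was lost or gained, the cause was not tested.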
